A study of Homo sapiens with 8 samples.

Results

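The *SLC2A* genes encode the GLUT proteins, carriers that let glucose, fructose and related sugars or dehydroascorbate pass membranes down their concentration gradient. Members described here are *SLC2A1*, *SLC2A3*, *SLC2A14*, *SLC2A6*, *SLC2A8*, *SLC2A10* and *SLC2A12*, which are 7 of 22439 named genes and 10 of 58201 probes on the array. The set was chosen by name, around *SLC2A14*, and *SLC2A14* was itself selected on its log2 ratio, which had been seen to rise most on both *miR-150-3p* arrays. Values on those arrays are therefore given as a description, with no test. Tests were made in 2 other treatments. Members and tests were chosen with earlier results of these data known, so those arrays are not known to be free of the choice.

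RNA of human lung cancer cell lines was hybridized to 8 Agilent two-color arrays, with treated RNA in Cy5 and control RNA in Cy3 on every array. *miR-150-3p*, the passenger strand of the *miR-150* duplex, was transfected into EBC-1 and SK-MES-1, both labelled lung squamous cell carcinoma, with 1 array for each line. SBC-3 cells, labelled small cell lung cancer, received siDONSON-1, siDONSON-2 or siDONSON-3, which are different siRNAs against the replication factor gene *DONSON*, with 1 array each. A549 cells, labelled lung adenocarcinoma, had *LOXL2*, a gene of the lysyl oxidase family, edited with CRISPR/Cas9, and the 3 arrays are named GE1, GE2 and GE3. The labels call the control of the transfected lines both mock and not transfected, and that of A549 not edited. Whether GE1 to GE3 are clones, pools or repeats of a single edited line is not given in the sources used here, nor is it given whether arrays of a cell line share a control RNA. P-values therefore measure only the spread between these arrays, which may be technical. EBC-1 and SK-MES-1 were fitted as 2 samples of *miR-150-3p*, so the difference between these cell lines, and the arrays that chose *SLC2A14*, enter the shared spread behind every test. Without either of them the SE of *SLC2A14* in edited A549 was 0.17 in place of 0.23. No dyes were swapped, so a gene-specific dye effect cannot be told apart from a treatment effect. In RNA from whole cultures, fewer cells of a type and less RNA per cell cannot be told apart.

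A value is the log2 ratio of Cy5 over Cy3 processed signal, so that 1 is a doubling in treated cells. Probes count on an array where 1 channel or both stood well above background, which left 27229 to 31785 probes per array. *DONSON* had log2 ratios of -2.15, -1.79 and -2.11 on the siDONSON arrays, and *LOXL2* had -2.49, -2.67 and -2.59 on GE1 to GE3, as the labels say. The labelled cell types were looked up in the Cy3 channel. *KRT5*, *KRT6A* and *DSG3*, markers of squamous cells, were not well above background in EBC-1 or SK-MES-1, and *TP63* was so in SK-MES-1 but not in EBC-1. *SOX2* was above background in both lines, so 1 of 5 squamous markers was above in EBC-1 and 2 of 5 in SK-MES-1. *TP63* and *SOX2* were also above on 3 of 3 SBC-3 arrays. *NEUROD1*, *CHGA* and *SYP* were well above background on 3 of 3 SBC-3 arrays, whereas *INSM1* and *POU2F3* were on none. In A549, *NAPSA* and *KRT7* were above background and *NKX2-1* and *SFTPB* were not. The same held in EBC-1 and SK-MES-1, so 2 of 4 adenocarcinoma markers were above in each of these lines. *KRT7* was also above on 3 of 3 SBC-3 arrays, and *CHGA* and *SOX2* on 3 of 3 A549 arrays. Many of these markers thus did not separate the lines by their labels. At least 1 of 5 probes for the leukocyte gene *PTPRC* and the probe for the fibroblast gene *COL1A1* were above background in every line. The 3 probes for the endothelial gene *PECAM1* were so in none. The part of these genes in the results was not tested.

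GLUT proteins differ in where they sit and what they carry. GLUT1 (*SLC2A1*) gives most cells their basal glucose uptake and is abundant in many tumors. GLUT3 (*SLC2A3*) is the high-affinity glucose carrier of neurons, and GLUT14 (*SLC2A14*) is its close copy, best known from testis. GLUT6 (*SLC2A6*) and GLUT8 (*SLC2A8*) lie largely on membranes inside the cell. GLUT10 (*SLC2A10*) is linked to dehydroascorbate transport and to arterial tortuosity syndrome, and GLUT12 (*SLC2A12*) is a glucose carrier of insulin-sensitive tissues.

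*SLC2A14* was raised on both *miR-150-3p* arrays and in edited A549 cells, and was little above 0 after siDONSON. Its probe, A_32_P47754, was well above background in both channels on 8 of 8 arrays. The log2 ratio was 2.96 in EBC-1, with an error of 0.35 from the scanner software, and 1.82 in SK-MES-1, with an error of 0.26. These are the values that chose the gene. For scale, 5.96% of the genes measured in EBC-1 had a log2 ratio above 1 and 6.04% had one below -1. The shares were 2.57% and 1.27% for SK-MES-1, and 0.506% of genes were above 1 in both lines. A normexp background correction, which pulls dim signals together, gave 0.88 for EBC-1 but 1.25 for SK-MES-1, so that the order of the lines turned.

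In A549 cells with *LOXL2* edited, the log2 ratio of *SLC2A14* was 1.79 in GE1, 0.94 in GE2 and 1.15 in GE3. All 3 arrays lay above 0, with GE1 highest. The mean of 1.29 (SE 0.23, n = 3), a 2.44-fold rise, passed the limma test with an adjusted p of 0.0129. Of the 15531 genes tested there, 1.34% had a higher mean. With 2 edited arrays only, the mean was 1.04 without GE1 (adjusted p = 0.0798) and 1.36 without GE3 (adjusted p = 0.0639), and neither passed in limma. After siDONSON the values were 0.38, 0.10 and 0.51 for the 3 siRNAs. Their mean of 0.33 (SE 0.23, 95% interval -0.21 to 0.87) did not pass in limma (adjusted p = 0.407). The difference between the groups, 0.96 (95% interval 0.21 to 1.71), had an adjusted p of 0.113 in limma. A different response of *SLC2A14* in the 2 groups was thus not shown.

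Over all 8 arrays the signal of the *SLC2A14* probe spanned more among controls than among treated cells, which rested on EBC-1. On a log2 scale common to the arrays, its Cy3 level was 6.14 in EBC-1 cells and 8.04 in SK-MES-1 cells. It was 8.89, 8.90 and 8.77 in the SBC-3 controls and 8.43, 8.43 and 8.33 in the A549 controls. The Cy3 levels thus spanned 2.76, and the line with the lowest control level, EBC-1, had the highest ratio. Both rest on the dim Cy3 signal of EBC-1, and the other Cy3 levels lay between 8.04 and 8.90. With normexp EBC-1 lay 0.49 below A549 in Cy3, in place of 2.26, and its ratio was below that of SK-MES-1. The Cy5 level was 9.10 in EBC-1, 9.85 in SK-MES-1, 9.27, 9.0 and 9.29 in SBC-3, and 10.22, 9.36 and 9.48 in A549. The Cy5 levels spanned 1.22, which is more than the Cy3 levels did without EBC-1. A ratio holds its own Cy3 level as denominator, so these values are given side by side with no correlation.

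**Figure D1:**
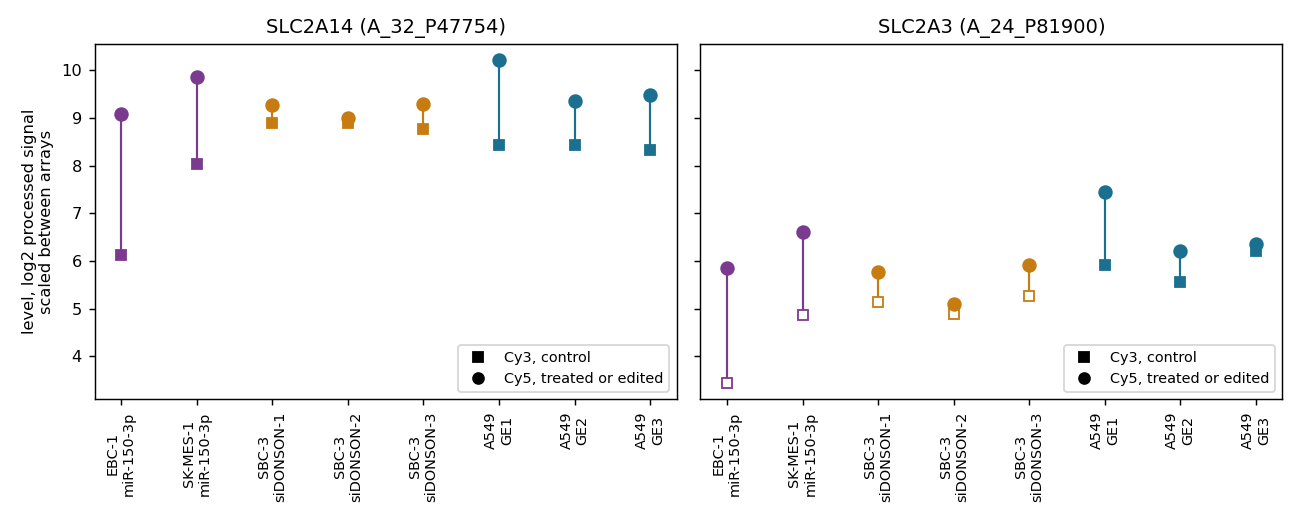
Level of the *SLC2A14* probe (left) and of the *SLC2A3* probe A_24_P81900 (right) in each channel of each array, as log2 processed signal scaled between arrays. Squares are Cy3 (control), circles are Cy5 (treated or edited), open symbols were not well above background, and the length of a line is the log2 ratio. The Cy3 squares of *SLC2A14* run from 6.14 to 8.90 and the Cy5 circles from 9.0 to 10.22, and *SLC2A3* has filled squares only in A549.

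*SLC2A3* followed *SLC2A14* on most arrays, at a dimmer signal. Its probe A_24_P81900 had log2 ratios of 2.41 in EBC-1, 1.75 in SK-MES-1, 0.65, 0.21 and 0.65 after siDONSON, and 1.53, 0.65 and 0.15 in GE1 to GE3. The Cy3 channel was well above background only in A549, so in the other lines the size of the rise is uncertain. Treated over control was at least 1.38-fold in EBC-1 and at least 1.31-fold over the siDONSON arrays, whose gene mean of 0.50 had an adjusted p of 0.209 in limma. Bounds were taken against the lowest signal on the array that was well above background, or the probe's own signal where that was higher. In SK-MES-1 its own signal was higher, so the 3.36-fold found there is the probe's plain ratio and not a minimum. With normexp the log2 ratio was 0.20 for EBC-1 and 0.30 for SK-MES-1. A second probe, A_23_P139669, was counted only in GE1, at 2.09, and in GE3, at 1.74, each time through Cy5 alone. The probes disagreed in GE3, where the first was near 0.

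As the mean of the probes counted on each array, *SLC2A3* was at 1.81, 0.65 and 0.94 in GE1 to GE3. The mean of 1.14 (SE 0.23, n = 3) passed the limma test with an adjusted p of 0.0182, but it rested on the second probe. With A_24_P81900 alone the mean was 0.78 (adjusted p = 0.0781 in limma), and with normexp it was 0.15 (adjusted p = 0.0717). It was 0.80 without GE1 (adjusted p = 0.0817) and 1.23 without GE3 (adjusted p = 0.0738), neither of which passed in limma.

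*SLC2A14* and *SLC2A3* lie near each other on chromosome 12, with 3 entries between them in the RefSeq gene order, *RPS20P29*, *LOC100130582* and *NANOGP1*. Their transcripts are alike enough that a probe for either may bind both, and probe sequences were not used here, so their signals are not known to be independent. The ratios of A_32_P47754 and A_24_P81900 differed by less than 1.96 software errors on 7 of 8 arrays. The exception was GE3, where *SLC2A14* was higher by 1.0 with an error of 0.35. The error of the difference was 0.80 in EBC-1, 0.43 in SK-MES-1 and 0.47 to 0.60 after siDONSON. The Cy3 signal of A_24_P81900 was dim there, so only a large difference could have stood out, and the count says little outside A549. Among 12862 genes with a value on all 8 arrays, *SLC2A3* had the profile most like *SLC2A14*, with a root mean square difference of 0.26 on the log2 scale. The next were *IFIT1* at 0.55, *LINC01431* at 0.58, *ZNF425* at 0.67 and *PCAT6* at 0.69. The gap between *SLC2A3* and *IFIT1* was larger than the gaps among the 4 others. These are gene values, and for *SLC2A3* in GE1 and GE3 they include the second probe. In GE3 the gene was at 0.94 and A_24_P81900 at 0.15. *SLC2A14* lay above A_24_P81900 by 0.26 in GE1 and by 1.0 in GE3, which is farther than from the gene values. With that probe alone the gap to *IFIT1* would be smaller, and its size was not computed. *IFIT1* was at 2.17 in EBC-1 cells and 0.85 in SK-MES-1 cells, between -0.14 and 0.19 after siDONSON, and between 1.47 and 1.70 in edited A549.

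Other genes of the same stretch of chromosome 12 were looked up beside the pair. Of 10 listed neighbors (*FOXJ2*, *C3AR1*, *NECAP1*, *CLEC4A*, *NANOG*, *NANOGNB*, *DPPA3*, *GDF3*, *APOBEC1* and *CLEC4C*), 5 were measured on every array of a group, in siDONSON and in edited A549 alike, and 0 passed in limma in either. With 7.22% and 14.4% of all genes passing, 0 of 5 is near the background and no result about the neighbors. In each group 1 of the 5 had an unadjusted p under 0.05, beside 3771 of 14453 genes after siDONSON and 4817 of 15531 in edited A549. These counts over all genes were made on the authors' own ratios. In edited A549 the neighbor was *NANOGNB*, at 0.28, 0.95 and 1.11 (mean 0.78, adjusted p = 0.0511 in limma). The median log2 ratio of the neighbors tested was 0.04 after siDONSON and 0.11 in edited A549, beside 0.03 and 0.02 over all genes tested. On the *miR-150-3p* arrays 4 were measured for EBC-1 and 5 for SK-MES-1, and 0 went past a log2 ratio of 1 in either direction. Over all genes 5.96% were above 1 and 6.04% below -1 for EBC-1, and 2.57% and 1.27% for SK-MES-1. So 0 of so few is near the background there too. *NANOGNB* lay just under 1 for SK-MES-1, at 0.98, and had no value for EBC-1.

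*SLC2A1* lay on opposite sides of 0 in siDONSON-treated SBC-3 cells and in edited A549 cells. Its probe A_23_P571 had log2 ratios of -0.67, -0.28 and -0.37 after siDONSON and 0.48, 0.53 and 0.54 in GE1 to GE3. All 3 arrays lay below 0 in the first group and above 0 in the second. How many of all genes do so was not counted. The mean in edited A549 was 0.52 (SE 0.14), a 1.43-fold rise, with an adjusted p of 0.0435 in limma. The mean after siDONSON was -0.44 (SE 0.14, 95% interval -0.76 to -0.13), and its adjusted p of 0.0932 in limma did not pass. The difference between the groups was 0.96 (95% interval 0.52 to 1.40) and passed among 13503 genes (adjusted p = 0.0267 in limma). This comparison was added after the values were seen, and it is between groups that also differ in cell line and method. On the *miR-150-3p* arrays *SLC2A1* was at 0.71 for EBC-1 but at 0.04 for SK-MES-1.

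The call of *SLC2A1* in edited A549 stood close to the threshold. Without any of GE1, GE2 or GE3 the mean stayed between 0.51 and 0.54, and the adjusted p was 0.162 without GE1, 0.190 without GE2 and 0.182 without GE3 in limma. It was 0.0625 without siDONSON-3, which enters through the shared spread, and 0.0510 after centring each array on its median. The mean after siDONSON passed when either *miR-150-3p* array was left out (adjusted p = 0.0386 in limma), and was -0.90 with the other treatments subtracted (adjusted p = 0.00599 in limma). That subtraction lowers the mean by construction, because *SLC2A1* lay above 0 on the arrays of the other treatments, so it adds no support.

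*SLC2A6* and *SLC2A8* have 2 probes each, all counted on 8 of 8 arrays. For *SLC2A6*, A_33_P3337044 was at 0.53, 0.41 and 0.51 in GE1 to GE3, and A_33_P3398912 was at 0.44, 0.39 and 0.43. Both probes were raised by about the same amount on every edited array. The gene mean was 0.45 (SE 0.10, n = 3), a 1.37-fold rise, with an adjusted p of 0.0225 in limma. Without GE1 the adjusted p was 0.132, without GE2 0.116 and without GE3 0.126, at means between 0.44 and 0.48. After siDONSON the probes were at 0.30, 0.05 and 0.07 and at 0.05, -0.01 and -0.19, with a gene mean of 0.05 (adjusted p = 0.808 in limma). The probes disagreed in EBC-1 after *miR-150-3p*, at 0.21 and 1.30, and were closer in SK-MES-1, at 0.37 and 0.49.

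For *SLC2A8*, A_23_P252783 was at 0.41, 0.35 and 0.38 in GE1 to GE3 and A_33_P3418158 at 0.08, 0.19 and 0.21. All values were above 0, but the gene mean of 0.27 (SE 0.11) did not pass in limma (adjusted p = 0.131). The brighter probe alone, with a mean of 0.38, passed when each gene was taken by its brightest probe (adjusted p = 0.0465) and not when all probes were fitted singly (adjusted p = 0.0598). The gene mean with the normexp correction passed (adjusted p = 0.0180 in limma). After siDONSON the probes were at -0.08, 0.11 and -0.37 and at 0.22, 0.29 and -0.19, around a gene mean of -0.003 (adjusted p = 0.989 in limma). In both probes siDONSON-3 was the lowest. After *miR-150-3p* the probes were at 0.18 and 0.14 for EBC-1 and at 0.13 and 0.38 for SK-MES-1.

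*SLC2A10* was measured in SK-MES-1 and SBC-3, in EBC-1 through Cy5 alone, and not at all in A549. Its log2 ratio after *miR-150-3p* was -0.47 for EBC-1 and -0.25 for SK-MES-1, and with the other treatments subtracted it was 0.03 and 0.26. After siDONSON it was -0.36, 0.22 and -1.36 for siRNAs 1 to 3, which disagree in sign, and siDONSON-3 was the lowest. The mean of -0.50 (SE 0.29, 95% interval -1.21 to 0.21) did not pass in limma (adjusted p = 0.328). *SLC2A12* was well above background in Cy3 on 0 of 8 arrays and in Cy5 on 3, at log2 ratios of 1.46 in SK-MES-1, 1.52 in GE1 and 1.80 in GE2. With Cy3 this dim, a ratio counted through Cy5 could only be high. The software errors of these 3 ratios were 0.88, 0.95 and 0.85, and with normexp the ratios were 0.06, 0.08 and 0.10. *SLC2A12* had no value on every array of a group, so it was not tested.

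**Figure D2:**
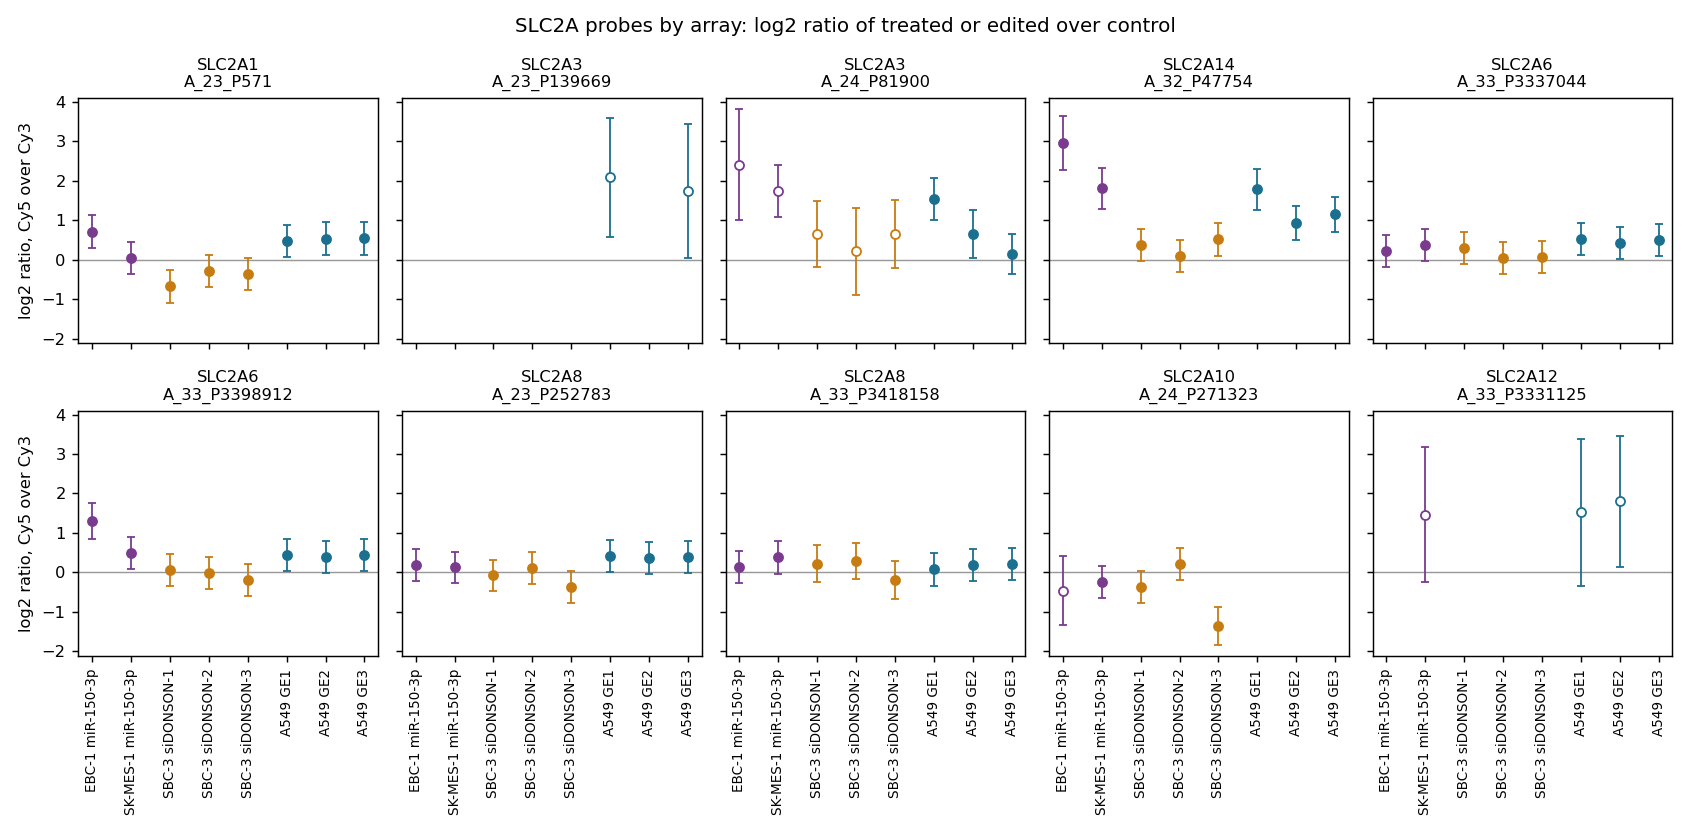
Log2 ratio of Cy5 (treated or edited) over Cy3 (control) for the 10 probes of the 7 *SLC2A* genes on each array where the probe was counted. Bars are 1.96 times the software's error, and open circles mark arrays on which only 1 channel was well above background. *SLC2A14* reaches 2.96 in EBC-1, and *SLC2A1* lies below 0 on all 3 siDONSON arrays and above 0 on GE1 to GE3.

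Of the 7 genes, 5 were tested in edited A549 and 4 were higher, while *SLC2A10* and *SLC2A12* were not tested. In that group 14.4% of all genes tested passed, 7.58% as higher and 6.77% as lower. The call of *SLC2A3* rested on its second probe, which was counted through Cy5 alone. A probe for *SLC2A14* or *SLC2A3* may also bind both transcripts, so the 4 are not evidence about the family. Subtracting the mean of the other treatments, which removes what the arrays share and also any rise on the *miR-150-3p* arrays, left *SLC2A14* at 0.14, *SLC2A6* at 0.19 and *SLC2A3* near 0 in edited A549, with adjusted p of 0.720, 0.211 and 0.997 in limma. *SLC2A1* was at 0.63 (adjusted p = 0.0185 in limma), but its values below 0 after siDONSON raise this figure by construction. These p-values leave out the spread of the subtracted mean, so passing here adds no support. After siDONSON 6 were tested and 0 passed in limma, beside 7.22% of all genes, 4.01% as higher and 3.21% as lower. There 1 of the 6, *SLC2A1*, had an unadjusted p under 0.05, beside 3771 of 14453 genes on the authors' own ratios. Fitting the probes singly also called 0 of the members there. The differences between the groups for *SLC2A3* (0.63, adjusted p = 0.259), *SLC2A6* (0.41, adjusted p = 0.107) and *SLC2A8* (0.27, adjusted p = 0.294) did not pass in limma.

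**Figure D3:**
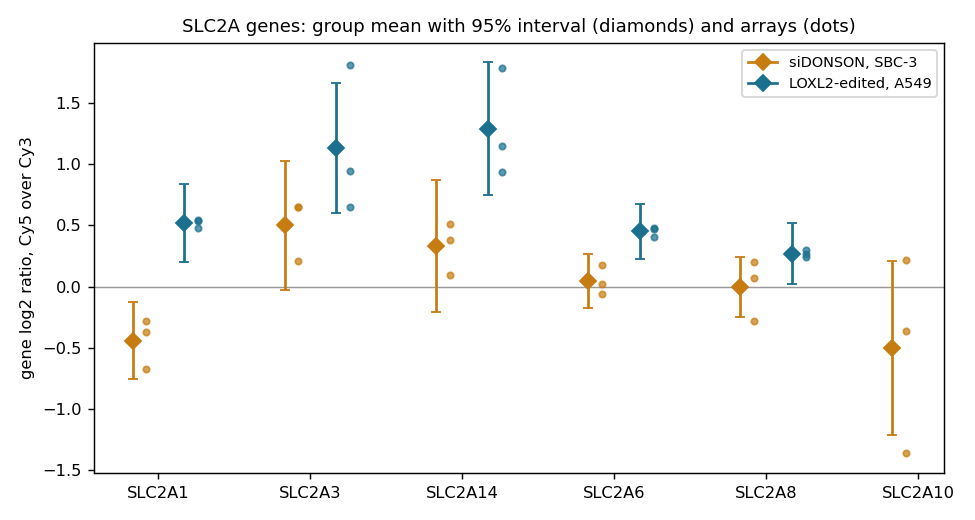
Gene log2 ratio (Cy5 over Cy3) of 6 *SLC2A* genes after siDONSON in SBC-3 and with *LOXL2* edited in A549. Diamonds are group means with the 95% interval from limma, and dots are the 3 arrays of a group. The *SLC2A1* means lie at -0.44 and 0.52 with intervals on opposite sides of 0, and *SLC2A10* has no value in A549.

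In control RNA, *SLC2A1*, *SLC2A14* and *SLC2A10* differed in their order of cell lines. Levels below are log2 Cy3 signals, compared only within a probe. *SLC2A1* was highest in EBC-1, at 14.05, then SK-MES-1, at 13.87, then SBC-3, at 12.94 to 12.99, and A549, at 12.05 to 12.12. EBC-1 was 3.89-fold above A549. EBC-1 and SK-MES-1 have 1 array each, so the gap of 0.18 between these neighbors cannot be set against a spread of their own. The steps from SK-MES-1 to SBC-3 and from SBC-3 to A549 were many times the range of 0.05 and 0.07 over the arrays of a line, which may hold the same RNA.

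*SLC2A14* had almost the reverse order, with SBC-3 at a mean of 8.85, A549 at 8.40, SK-MES-1 at 8.04 and EBC-1 at 6.14. SBC-3 was 6.58-fold above EBC-1, A549 4.80-fold and SK-MES-1 3.74-fold. With normexp the order was kept but the log2 difference from A549 shrank, from -2.26 to -0.49 for EBC-1, from -0.36 to -0.19 for SK-MES-1 and from 0.46 to 0.26 for SBC-3. *SLC2A3* was well above background in A549 alone, at least 1.41-fold above EBC-1 and 1.61-fold above SBC-3. It was 2.05-fold above the dim signal of SK-MES-1 itself, which is not a minimum. *SLC2A10* divided the lines most sharply. It was at 9.95 in SK-MES-1 and 8.93 to 9.16 in SBC-3, and was not well above background in EBC-1 or A549. SK-MES-1 was 1.86-fold above SBC-3, 22.0-fold above EBC-1 and at least 33.8-fold above A549. SBC-3 was 11.8-fold above EBC-1 and at least 18.2-fold above A549. The folds over EBC-1 use the dim signal of that line itself, so they are not minima.

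For *SLC2A6* the probes gave different orders. A_33_P3337044 was highest in SBC-3, at a mean of 11.88, and A_33_P3398912 was lowest there, at 9.42, and highest in A549, at 10.73. No order of cell lines can be given for this gene. For *SLC2A8*, A_23_P252783 was highest in EBC-1, at 12.64, with SBC-3 at 11.99, SK-MES-1 at 11.97 and A549 at 11.78, and A_33_P3418158 was also highest in EBC-1, at 8.55, but lowest in SBC-3, at 6.98. SK-MES-1, at 11.97, lay within the 11.96 to 12.03 of the SBC-3 arrays on the first probe.

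**Figure D4:**
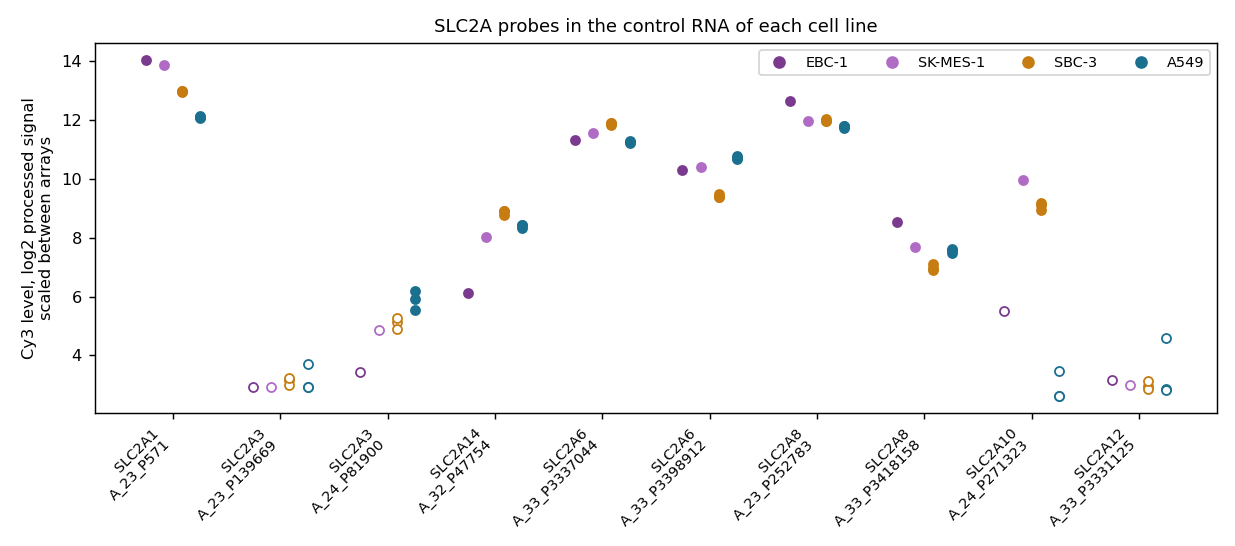
Cy3 level (log2 processed signal scaled between arrays) of each *SLC2A* probe in control RNA, with 1 dot per array and open dots where the probe was not well above background. Colors are cell lines. Levels are comparable within a probe only; *SLC2A10* is filled only in SK-MES-1 and SBC-3, and *SLC2A14* is lowest in EBC-1.

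The other 7 *SLC2A* genes on the array gave few values. *SLC2A2* and *SLC2A9* were counted on 0 arrays, and *SLC2A5* and *SLC2A7* on a few through Cy5 alone. *SLC2A11*, *SLC2A13* and *SLC2A4* were tested after siDONSON and the first 2 in edited A549, and 0 passed in limma. Over all genes 7.22% passed after siDONSON and 14.4% in edited A549, so 0 of so few is near the background. In SBC-3 1 of these carriers had an unadjusted p under 0.05, *SLC2A4*, the insulin-responsive carrier of muscle and fat, at a mean of -0.85 (adjusted p = 0.135 in limma). In A549 0 of the 2 had. Over all genes, on the authors' own ratios, 3771 of 14453 had one in SBC-3 and 4817 of 15531 in A549.

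Genes that act on glucose after or around its entry were described from lists named below. They were drawn up with earlier results of these data known, so their counts are a description. Of 11 regulators of glucose transporters, all 11 were tested in edited A549, where 4 were higher and 1 lower in limma and 5 had an unadjusted p under 0.05. Over all genes there, 7.58% were higher and 6.77% lower, and 4817 of 15531 had an unadjusted p under 0.05 on the authors' own ratios. The list median was 0.16 beside 0.02 over all genes. *TXNIP* and *ARRDC4* encode arrestin-like proteins that lower GLUT1 at the cell surface and are themselves induced by glucose. *TXNIP* was at 2.50, 2.59 and 1.93 in GE1 to GE3, a mean of 2.34 (adjusted p = 0.0105), with 0.116% of genes higher. *ARRDC4* was at 3.31, 1.60 and 1.15 (mean 2.02, adjusted p = 0.0121). *HIF1A*, the hypoxia-inducible transcription factor known to act on *SLC2A1*, was at 1.12, 1.07 and 1.0 (mean 1.06, adjusted p = 0.00341), and its relative *EPAS1* had a mean of 0.65 (adjusted p = 0.0173). *TBC1D4*, which holds GLUT4 inside the cell, fell to a mean of -0.68 (adjusted p = 0.0254 in limma).

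After siDONSON, 2 of the 11 regulators rose and 1 fell in limma, where 4.01% of all genes were higher and 3.21% lower. An unadjusted p under 0.05 was found for 6 of the 11, beside 3771 of 14453 genes on the authors' own ratios. The list median was 0.03, as over all genes. *TXNIP* was at 3.04, 0.76 and 1.78 (mean 1.86, adjusted p = 0.0346), ranking 4 among the means of 14453 genes, and siDONSON-2 was the lowest. *ARRDC4* was at 1.07, 0.83 and 1.43, and its mean of 1.11 did not pass (adjusted p = 0.103 in limma). *EPAS1* rose by 0.75 (adjusted p = 0.0201) and *MLXIPL*, a glucose-responsive transcription factor that induces *TXNIP*, fell to a mean of -0.97 (adjusted p = 0.0233 in limma). On the *miR-150-3p* arrays *TXNIP* was at 0.76 for EBC-1 and -0.38 for SK-MES-1, and *ARRDC4* at -0.10 and -0.47. The regulator with the mean farthest from 0 over both was *SLC2A4RG*, a factor that binds the *SLC2A4* promoter, at -1.71 and -1.03.

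Among hexokinases and neighboring first steps, the genes that passed were lower. In edited A549, 8 of 9 listed genes (*HK1*, *HK2*, *HK3*, *HKDC1*, *ADPGK*, *GPI*, *KHK*, *AKR1B1* and *SORD*) were tested. Of these 3 were lower and 0 higher in limma, where 6.77% of all genes were lower and 7.58% higher. An unadjusted p under 0.05 was found for 4, beside 4817 of 15531 genes on the authors' own ratios. *HK2*, the hexokinase raised in many tumors, was at -1.10, -1.94 and -2.12 in GE1 to GE3 (mean -1.72, adjusted p = 0.00563). *KHK*, which phosphorylates fructose, was at -1.31, -1.42 and -1.10 (mean -1.28, adjusted p = 0.00699). *SORD*, which makes fructose from sorbitol, had a mean of -0.71 (adjusted p = 0.00767 in limma). The median of these 8 was -0.23 in edited A549, beside 0.02 over all genes.

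After siDONSON 7 of these 9 were tested, and 2 were lower and 0 higher in limma, where 3.21% of all genes were lower. An unadjusted p under 0.05 was found for 2, beside 3771 of 14453 genes on the authors' own ratios. *HKDC1*, a hexokinase-like enzyme, was at -1.56, -0.65 and -1.17 (mean -1.13, adjusted p = 0.0159), and *SORD* had a mean of -0.53 (adjusted p = 0.0306 in limma). *HK2* was at -0.63, -0.21 and 0.17 there, on either side of 0. Over both *miR-150-3p* arrays the mean farthest from 0 was that of *KHK*, at -1.31 for EBC-1 and -0.67 for SK-MES-1.

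Of 9 other carriers of sugars and vitamin C, 7 were tested in edited A549 and 2 were higher in limma, where 7.58% of all genes were higher. *SLC23A2*, a sodium-dependent vitamin C transporter, had a mean of 0.62 (adjusted p = 0.0232) and *SLC45A4* a mean of 0.68 (adjusted p = 0.00833 in limma). After siDONSON 6 were tested and 0 passed in limma, beside 7.22% of all genes. An unadjusted p under 0.05 was found for 0 of the 6, beside 3771 of 14453 genes on the authors' own ratios. The list medians were -0.17 in edited A549 and -0.15 after siDONSON, beside 0.02 and 0.03 over all genes. *SLC5A3*, the sodium/myo-inositol cotransporter, had the mean farthest from 0 over both *miR-150-3p* arrays among the 6 measured in both lines, at -1.80 for EBC-1 and -0.18 for SK-MES-1. *SLC45A1*, measured for SK-MES-1 but not for EBC-1, was at 1.49 there.

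**Figure D5:**
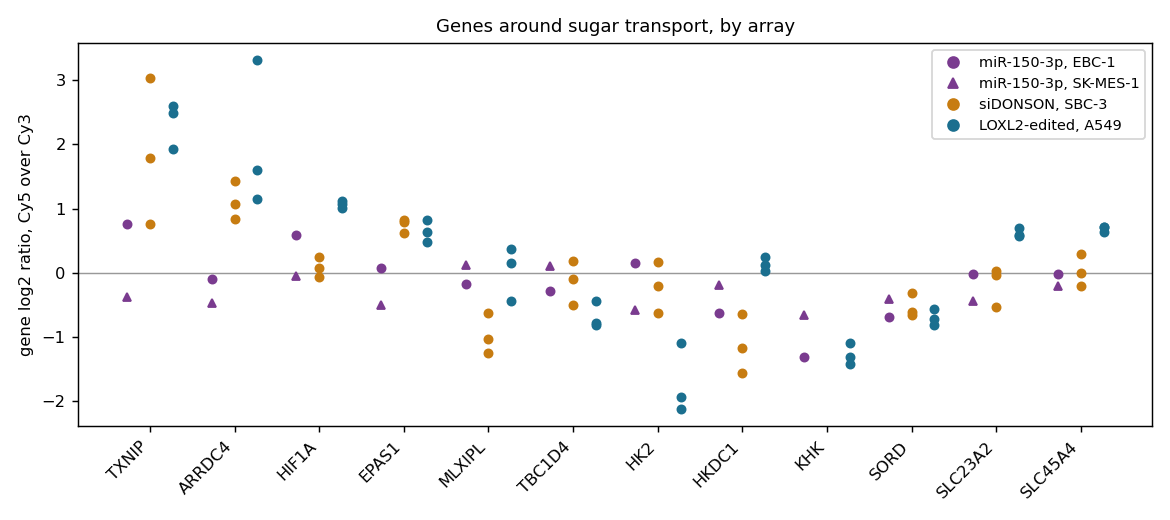
Gene log2 ratio (Cy5 over Cy3) of the 12 listed genes around sugar transport that passed in siDONSON or in edited A549, with 1 symbol per array. Purple is *miR-150-3p* (circle EBC-1, triangle SK-MES-1), orange siDONSON in SBC-3 and blue *LOXL2*-edited A549. *TXNIP*, *ARRDC4* and *EPAS1* lie above 0 and *SORD* below 0 on every siDONSON and edited array, and *HK2* and *HIF1A* lie apart from 0 in edited A549.

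Because *HIF1A* was higher in edited A549, the letters of the hypoxia response core were looked up in promoters of the transporters, from 250 bases before the start site to 50 after it, in RefSeq sequence of GRCh38.p14. Windows were given for 6 of the 7 genes. ACGTG, on either strand, occurs in 21.4% of 35116 such windows and GCGTG in 36.5%. *SLC2A14* and *SLC2A10* held ACGTG 1 time each, *SLC2A1* held GCGTG 1 time and *SLC2A6* 3 times, and *SLC2A8* and *SLC2A12* held neither. These matches are letters in a window and not binding sites. Shown 5′ to 3′ on the strand of the gene, with the core in capitals (as its reverse complement where it lies on the other strand), are the matches of the first 3 genes and the *SLC2A6* match nearest to its start site, at chr12:7872960-7872984 (minus strand), chr20:46709566-46709590 (plus), chr1:42958829-42958853 (minus) and chr9:133479179-133479203 (minus).
SLC2A14: tgaaccgagtCACGTtttgtaacca
SLC2A10: tggctggccgACGTGgcgttggcgg
SLC2A1: gcaacagcgaGCGTGccggtcgcta
SLC2A6: ccattggccgGCGTGtctctgcagg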

How the data were processed

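The authors deposited Agilent Feature Extraction output (version 12.1.1.1 in the file headers) for each of the 8 arrays of design 072363. Per the file headers, it holds intensities of both channels, background-subtracted and dye-normalized by the authors' software with linear and lowess steps, and log10 ratios with their errors. The series-wide value table repeats those log10 ratios. All arrays lie on 1 slide. The array and its software are not named in the paper's text used here.

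Log2 ratios were computed from the processed intensities. Of 60901 spots that are not controls, 81 to 133 per array were marked as outliers and left out. Repeated spots were averaged to probes, and counted probes to genes. Names came through RefSeq accessions, 24782 of 50096 of which matched. The files name an older build than the gene table, so gene order only was taken from that table.

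limma 3.58.1 (R 4.3.3) fitted a mean per treatment to all 8 arrays with 5 residual degrees of freedom. Each mean was tested against 0 over the genes with a value on every array of the group, with Benjamini-Hochberg adjustment at 0.05. The control is the other channel, so its own spread is left out. The fit was tested on simulated data. Levels per channel were scaled between arrays with Aquantile. The normexp alternative (offset 50) used median signals, because the files hold no mean signal. The number of arrays limits the precision.

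Named genes were the 7 members with every probe, other *SLC2A* genes as counts, chromosome 12 neighbors, genes of the pathway lists that passed or lay farthest from 0, and the 5 profiles nearest to *SLC2A14*. The members, lists and tests were chosen with earlier results of these data known. The list of regulators was *TXNIP*, *ARRDC4*, *MLXIP*, *MLXIPL*, *GIPC1*, *ASPSCR1*, *TBC1D4*, *SLC2A4RG*, *HIF1A*, *EPAS1* and *STXBP3*, and that of other carriers *SLC5A1*, *SLC5A2*, *SLC5A3*, *SLC23A1*, *SLC23A2*, *SLC45A1*, *SLC45A3*, *SLC45A4* and *SLC50A1*. Some genes first listed are not reported here, and the counts and medians of their lists leave them out.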

Additional observations from a re-analysis of the deposited data

How the results depend on the processing

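Of 403 values recomputed under an alternative, 314 kept their direction, their side of the threshold and about their size. No paired analysis was possible because siDONSON and edited A549 share replicate numbers but were each tested against a control in the other channel, and the numbers mark different siRNAs and edited samples. Genes called after siDONSON, 1043 in the analysis as reported, numbered 2897 with no filter on dim probes, 2787 with the other treatments subtracted, 26 with the spread of that group alone, 1597 with 1 fit per probe, and 97 to 1409 with 1 array left out. The fewest, 97, came without siDONSON-3. In edited A549, 2229 became 5375, 5873 (own spread), 3619 (per probe) and 470 to 2889 with 1 array left out, lowest without GE2. Subtracting the mean of the other treatments put *SLC2A14* at 0.14 in edited A549 (adjusted p = 0.720 in limma), 2.15 for EBC-1 and 1.0 for SK-MES-1, and turned it to -1.40 after siDONSON, with *SLC2A3* at -1.01, *SLC2A6* at -0.46 and, in SK-MES-1, *SLC2A12* at -0.19. By construction this takes from each treatment the rise of *SLC2A14* on the others. With 1 array left out *SLC2A14* was 1.04 to 1.47 in edited A549 and 0.24 to 0.45 after siDONSON. Normexp gave 0.88 for EBC-1 and 1.25 for SK-MES-1. Means near 0 after siDONSON changed sign for *SLC2A6* (-0.0218 without siDONSON-1, up to 0.0985 with another siRNA left out, and -0.0503 with probe A_33_P3398912) and *SLC2A8* (0.137 without siDONSON-3, down to -0.105 with another left out, and 0.106 with probe A_33_P3418158), and the *SLC2A8* control level in SBC-3 minus A549 became -0.0514 with scaling to the 75th percentile. Causes were not tested. *SLC2A3*, *SLC2A12* and, in A549, *SLC2A10* lay near or below background, which limits their ratios.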
